A study of Homo sapiens with 27 samples.

Results

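The transcripts of 8 splicing regulators were followed in RNA-seq of triple-negative breast cancer (TNBC) cells in which ZEB1 was silenced. ESRP1, ESRP2 and RBM47 were taken as the epithelial side and RBFOX2, QKI, MBNL1, MBNL2 and MBNL3 as the mesenchymal side, by name and from general knowledge of the families, 8 of the 57165 genes measured. All 8 symbols matched a gene in the data. SUM159 and MDA-MB-231 are human TNBC cell lines, which the study describes as mesenchymal. Each was measured as untransduced wild type cells, as cells carrying dCas9-KRAB (a catalytically dead Cas9 fused to the KRAB repressor, delivered on the lentiviral vector pLV-KRAB with puromycin selection) and no gRNA (No gRNA), and as cells carrying the same vector with gRNAs against the ZEB1 promoter. In SUM159 the targeted groups were gRNA 4 alone and all 4 gRNAs together (All gRNA). In MDA-MB-231 the labels of the 6 targeted libraries conflict. Set 1 is gRNA 4 by its titles but the pool by its columns, set 2 is the reverse, and the sets were kept apart without a gRNA name. Every group had 3 libraries, giving 27 in 9 groups, and the study's methods call replicates individual clones while the labels call them biological replicates. P-values measure only the spread between these libraries.

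By their labels the SUM159 groups belonged to run 1, with 3 further SUM159 wild type libraries in run 2 beside all MDA-MB-231 libraries. The labels do not say which steps the libraries of a run shared. For cells with the vector, line and run cannot be told apart. Depth was 15461200 to 21473757 estimated counts per library. ZEB1 mean levels fell from 73.6 CPM (estimated counts over the scaled library total) in SUM159 No gRNA to 3.45 with gRNA 4 and 0.733 with All gRNA, and in MDA-MB-231 from 110.1 CPM without gRNA to 5.36 CPM in set 1 and 4.74 CPM in set 2. Of the markers checked against the TNBC label, ESR1 was at most 0.185 CPM and PGR at most 0.959 CPM in any library, ERBB2 lay between 38.1 and 72.9 CPM, and the mesenchymal marker VIM between 1322 and 4314 CPM. EPCAM, an epithelial adhesion gene, was at most 1.38 CPM in SUM159 but 10.9 to 389 CPM over the MDA-MB-231 libraries, targeted ones included. The claudin genes CLDN4 and CLDN7 were at most 1.10 and 0.197 CPM in SUM159. In MDA-MB-231 they lay at 63.5 to 145 and 15.3 to 90.2 CPM. CLDN3 was at most 1.86 CPM and CDH1 at most 24.3 CPM in any library. EPCAM, CLDN4 and CLDN7 were thus higher in every MDA-MB-231 library, controls included, than in any SUM159 library. They did not show the low levels looked for in claudin-low mesenchymal cells as SUM159 did. No cut-off for a low level was set, and the MDA-MB-231 ranges pool targeted and control libraries.

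ESRP1 and ESRP2 are RNA-binding proteins that promote epithelial forms of transcripts such as CD44, FGFR2, CTNND1 and ENAH, and ZEB1 is known as a repressor of ESRP1 in breast cancer cells. RBM47 also favours epithelial splice forms and stabilises some transcripts. RBFOX2, which binds GCATG elements, QKI, a STAR-domain protein that also promotes circular RNA formation, and the muscleblind proteins MBNL1 to MBNL3 shape mesenchymal or differentiation-linked exon choices. The data are counts per gene. They carry no measure of exon inclusion, so each value below is the abundance of the regulator's own transcript.

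ZEB1 binds E-boxes of the letters CAGGTG, which read CACCTG on the other strand. In the RefSeq promoter windows of GRCh38.p14, which run from 250 bases before to 50 bases after a start, 13 windows matched 4 members (RBM47, MBNL1, MBNL2 and MBNL3). These letters, searched on both strands, stood in 1 of the 13, a window of RBM47, against 7231 of all 35116 windows (20.6%). The stretch around that match is shown because it was the only such match in the 13 windows searched, and ESRP1, ESRP2, RBFOX2 and QKI were not searched. It lies on the minus strand at chr4:40514772-40514801, the capitals mark the E-box letters, and they start 208 bases before the annotated start.
RBM47: ctccgcccccacCACCTGaaagtttgacat
A match of letters is a description and says nothing of binding.

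ESRP1 rose with ZEB1 targeting in both sets of MDA-MB-231, and no other member was called past 2-fold. Against No gRNA, TREAT, limma's test against a fold change of 2, called 1.47% of the 15721 genes tested in set 1 and 4.14% in set 2 at a Benjamini-Hochberg adjusted p under 0.05. Of the 8 members it called 1 in each set, ESRP1, as higher. ESRP1 (ENSG00000104413, plus strand of chromosome 8, 94641074 to 94707466 on GRCh38) was 2.24, 4.28 and 2.75 CPM in the No gRNA libraries. It was 73.4, 61.1 and 75.6 CPM in set 1 and 56.8, 66.5 and 44.4 CPM in set 2. The lowest targeted library thus stood above the highest control library by a wide margin, while wild type cells held 1.15, 2.87 and 0.468 CPM. The log2 fold change was 4.53 (SE 0.374), a fold of 23.1, in set 1 and 4.21 (SE 0.376), a fold of 18.5, in set 2, with TREAT adjusted p of 0.000124 and 0.000136. Among the genes called higher by TREAT, ESRP1 was number 29 of 173 in set 1 and number 23 of 273 in set 2 by size of change. Set 2 and set 1 did not differ past the threshold for ESRP1 (log2 difference -0.32, 95% confidence interval -0.69 to 0.05, moderated adjusted p 0.139). Per length, on CPM per kilobase of the canonical transcript, ESRP1 reached 18.6 in set 1 and 14.8 in set 2, against 0.820 in No gRNA. In these bulk libraries more cells with the transcript and more transcript per cell cannot be told apart.

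**Figure D1:**
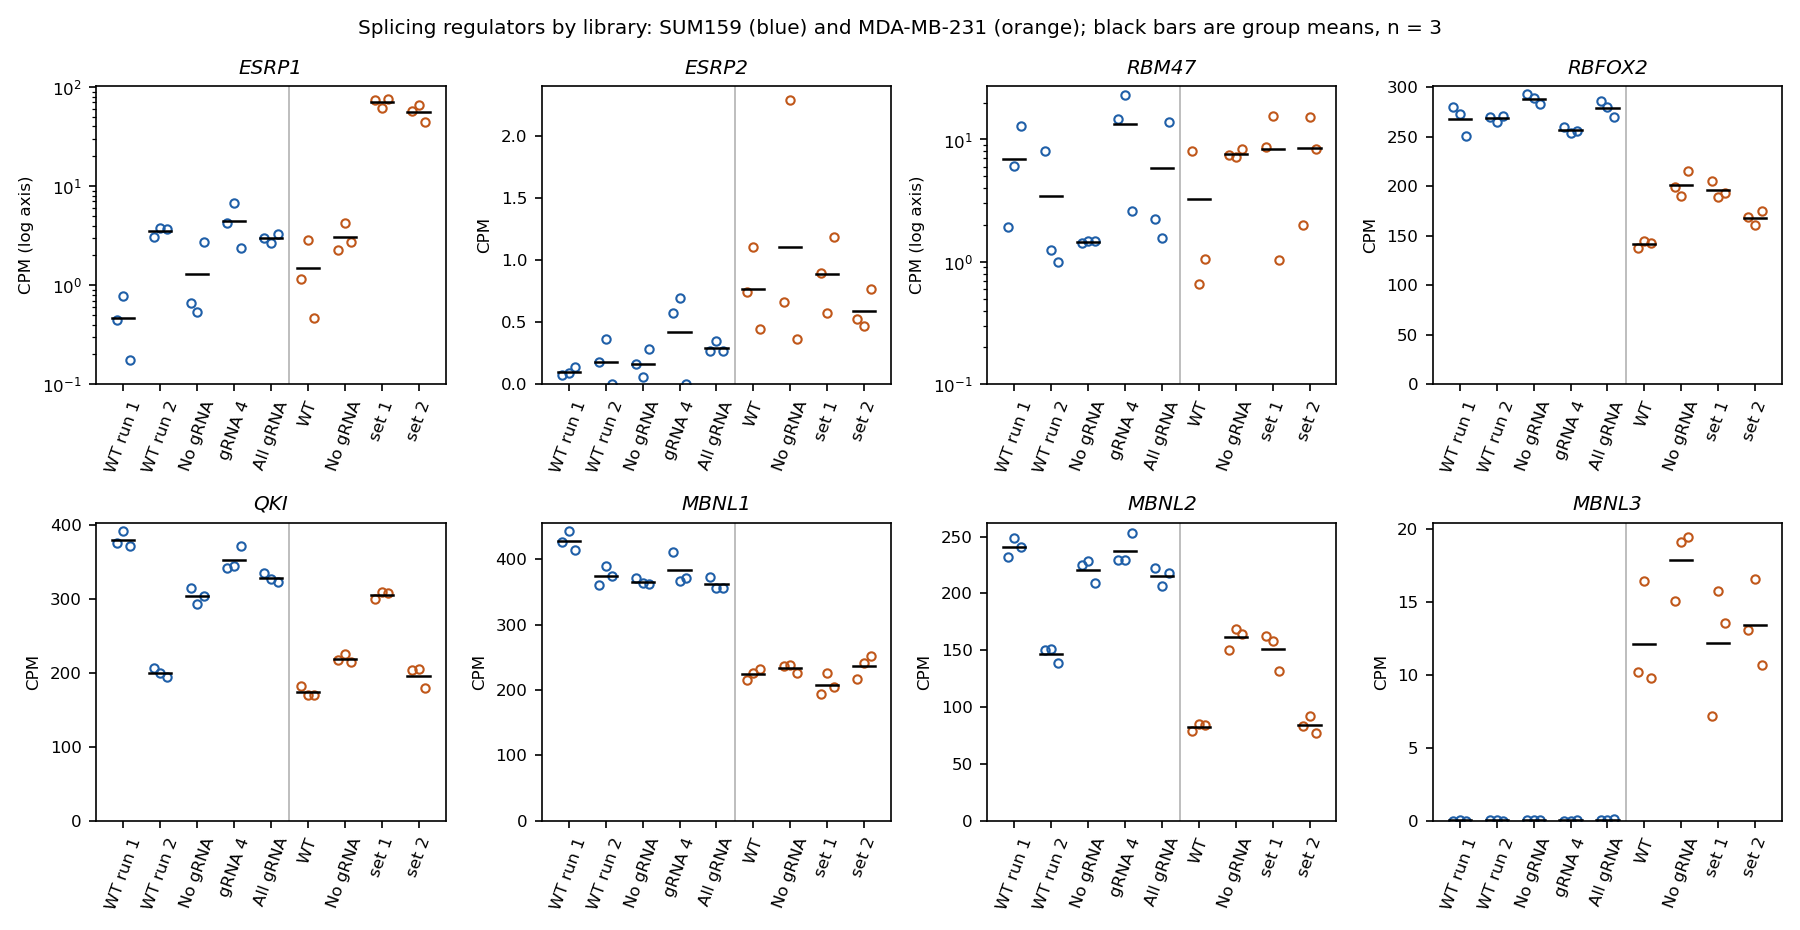
Level of each member in every library, in CPM on the vertical axis (logarithmic for ESRP1 and RBM47, linear from 0 for the others), with the 5 SUM159 groups in blue, the 4 MDA-MB-231 groups in orange and black bars at the means of 3 libraries. ESRP1 stood at 44.4 to 75.6 CPM in both targeted MDA-MB-231 sets and at most 6.81 CPM in all other libraries, while RBM47 was scattered within most groups and MBNL3 was near 0 in SUM159.

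In SUM159 the ESRP1 values were low and the call depended on the control, the libraries and the test. TREAT called 0.396% of 15147 genes with All gRNA and 0.39% with gRNA 4, and 0 of the 6 members tested in each. The moderated test of the same fit against no change called 10.8% of genes with All gRNA, where 0 of the 6 members were among them, and 11% with gRNA 4, where 3 of 6 were called (ESRP1 and QKI higher, RBFOX2 lower). ESRP1 stood at 0.667, 0.540 and 2.72 CPM in No gRNA, at 4.28, 6.81 and 2.35 CPM with gRNA 4, and at 3.00, 2.68 and 3.30 CPM with All gRNA. The third No gRNA library overlapped both targeted groups. Against No gRNA the log2 fold change was 1.98 (SE 0.572, moderated adjusted p 0.0469) with gRNA 4 and 1.54 (SE 0.587, moderated adjusted p 0.124) with All gRNA. The gRNA 4 call was lost (adjusted p 0.0917 to 0.173) on leaving out No gRNA replicate 1 or 2 or gRNA 4 replicate 1 or 2, and under edgeR's quasi-likelihood test (adjusted p 0.0782). Without No gRNA replicate 3 the log2 fold changes were 2.70 (adjusted p 0.0331) and 2.26 (adjusted p 0.0733). With wild type of run 1 as the control ESRP1 was called higher in both groups, by 3.25 (adjusted p 0.00263) with gRNA 4 and 2.81 (adjusted p 0.00651) with All gRNA.

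ESRP1 in untransduced SUM159 cells also differed between the labelled runs, and what else differed between them is not given. Wild type libraries of run 1 held 0.445, 0.783 and 0.177 CPM, and those of run 2 held 3.08, 3.81 and 3.71 CPM. All 3 run 2 wild type libraries lay within the range of the targeted SUM159 libraries of run 1. In the comparison of the runs the moderated test called 62.1% of 14337 genes, and 4 of 6 members, with ESRP1 higher in run 2 by 3.05 on the log2 scale (SE 0.422, adjusted p 0.000649), a fold of 8.27. Against the same run 1 wild type libraries the targeted groups differed by 3.25 and 2.81, and the difference of these values from 3.05 was not tested. All libraries of the SUM159 comparisons with No gRNA were in run 1.

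The change of ESRP1 with gRNAs was larger in MDA-MB-231 than in SUM159. An interaction over 24 libraries, taking the mean of both targeted groups minus No gRNA in each line, called 25.4% of 17182 genes by the moderated test and 2 of the 8 members. ESRP2 and MBNL3 count among the 8, although neither passed the count filter in SUM159 alone, and neither was called. ESRP1 differed by 2.59 (SE 0.708, adjusted p 0.0102). Leaving out the third SUM159 No gRNA library brought this to 1.87 (adjusted p 0.132), so the call rested on that library. The other member, MBNL2, differed by -0.57 (SE 0.0887, adjusted p 5.82e-05), lower in MDA-MB-231. The interaction was not run with wild type as the control. Line and run cannot be told apart in this contrast.

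ESRP2, the paralogue of ESRP1, stayed near the limit of detection. It was at most 0.693 CPM in SUM159, with at most 11.8 estimated counts in a library, and was not tested there. In MDA-MB-231 it lay between 0.367 and 2.28 CPM. The No gRNA libraries held 0.662, 2.28 and 0.367 CPM, set 1 held 0.896, 0.572 and 1.19 CPM, and set 2 held 0.524, 0.471 and 0.767 CPM. Those groups overlapped. The log2 fold change was 0.02 (95% confidence interval -1.27 to 1.31) in set 1 and -0.51 (-1.89 to 0.88) in set 2, with intervals that reach past 2-fold. The within-group SD of ESRP2 on log2 CPM was 0.818, against a median of 0.508 among 3285 genes within 2-fold of its mean level. ESRP2 (chromosome 16, 68229033 to 68238102, minus strand) shares 227 exon bases with NFATC3 on the opposite strand, which had a mean of 833.9 estimated counts. Whether reads of the genes were kept apart is uncertain, since the strandedness of the counting is not given in the sources used here.

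RBM47 passed neither limma test in any targeted comparison, and it varied more within groups than almost any gene of its level. In set 1 its libraries held 8.60, 15.6 and 1.04 CPM, in set 2 2.01, 15.4 and 8.32 CPM, and in MDA-MB-231 No gRNA 7.43, 7.14 and 8.41 CPM. With gRNA 4 in SUM159 they held 14.8, 22.9 and 2.61 CPM, with All gRNA 2.25, 1.56 and 13.9 CPM, and in SUM159 No gRNA 1.42, 1.48 and 1.49 CPM. Both No gRNA groups were thus narrow and every other group was wide, with wild type SUM159 of run 1 between 1.91 and 12.9 CPM. The within-group SD of RBM47 was 1.46 on log2 CPM, against a median of 0.277 among 2787 genes within 2-fold of its mean level, and 99.1% of these had a smaller SD. The log2 fold change was 2.69 (SE 1.28, moderated adjusted p 0.217) with gRNA 4, 1.33 (SE 1.39, adjusted p 0.607) with All gRNA, -0.51 (SE 0.924, adjusted p 0.703) in set 1 and -0.26 (SE 0.878, adjusted p 0.830) in set 2. All 3 values of each targeted SUM159 group were above all No gRNA values, and so were those of wild type of run 1. The share of all genes separated in this way was not counted. Against wild type of run 1 RBM47 was 0.85 (adjusted p 0.451) with gRNA 4 and -0.50 (adjusted p 0.715) with All gRNA. DESeq2, an alternative test, called RBM47 higher with gRNA 4 (log2 fold change 3.18, adjusted p 0.0147), and it gave positive values for both MDA-MB-231 sets (0.11 in set 1, 0.17 in set 2).

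**Figure D2:**
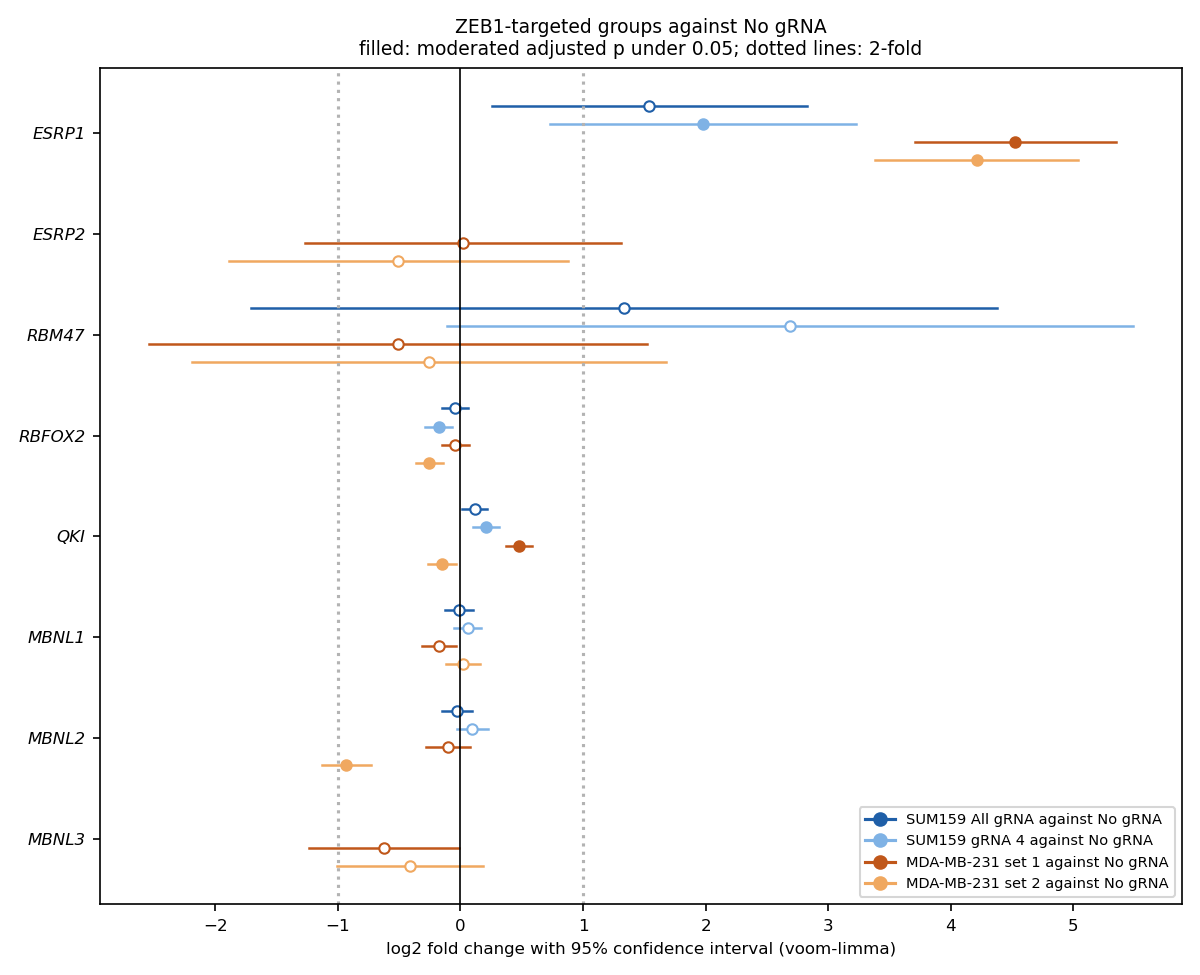
Log2 fold change of each member against No gRNA on the horizontal axis, with 95% confidence intervals from voom-limma, for the 4 targeted groups (3 libraries against 3). Filled points passed the moderated test at an adjusted p under 0.05. ESRP1 in MDA-MB-231 (4.53 and 4.21) stood clear of the dotted 2-fold lines, the intervals of ESRP2 and RBM47 were wide, and those of RBFOX2, QKI, MBNL1 and MBNL2 were narrow and mostly within 2-fold.

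RBFOX2, QKI, MBNL1 and MBNL2 held at least 77.1 CPM in every library, and their estimated differences from No gRNA were under 2-fold. By the moderated test, which called 37.8% of all genes in set 1 and 52.4% in set 2, 2 of 8 members were called in set 1 (ESRP1 and QKI, both higher) and 4 of 8 in set 2 (ESRP1 higher, and RBFOX2, QKI and MBNL2 lower). The median log2 fold change over the 8 members was -0.07 in set 1 and -0.25 in set 2, against -0.01 over all genes in each set. QKI was the only mesenchymal-side member called in both MDA-MB-231 sets against No gRNA, in opposite directions. How many of all genes did so was not counted. With wild type as the control RBFOX2 was called higher in both sets, as given below.

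QKI (ENSG00000112531, chromosome 6, 163414000 to 163578592) moved in opposite directions in the sets against No gRNA. Against wild type both values were positive, as given below. It was 217, 225 and 215 CPM in MDA-MB-231 No gRNA, 299, 310 and 308 CPM in set 1, and 203, 205 and 179 CPM in set 2. Neither set overlapped No gRNA. The log2 fold change was 0.48 (SE 0.0481, adjusted p 1.58e-05) in set 1 and -0.15 (SE 0.0519, adjusted p 0.0266) in set 2. Leaving out MDA-MB-231 No gRNA replicate 2 or set 2 replicate 3 ended the set 2 call (adjusted p 0.118 and 0.121), as did omitting the filter on low counts (adjusted p 0.068). In SUM159 QKI was 314, 293 and 304 CPM in No gRNA, 342, 345 and 372 CPM with gRNA 4 and 336, 327 and 322 CPM with All gRNA. Its log2 fold change was 0.21 (SE 0.0475, adjusted p 0.0149) with gRNA 4 and 0.12 (SE 0.0476, adjusted p 0.152) with All gRNA. The gRNA 4 call was lost without No gRNA replicate 2 (adjusted p 0.0663) or gRNA 4 replicate 3 (adjusted p 0.0643).

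MBNL2 (ENSG00000139793, chromosome 13, 97221434 to 97394120) fell in set 2 alone. The MDA-MB-231 No gRNA libraries held 150.02, 169 and 164 CPM, set 1 held 162, 159 and 132 CPM, and set 2 held 83.3, 91.8 and 77.1 CPM. The log2 fold change in set 2 was -0.93 (SE 0.0903, adjusted p 5.53e-06), a fold of 0.525, and TREAT did not call it. In set 1 it was -0.10 (SE 0.0804, adjusted p 0.351). The sets themselves differed by -0.83 (SE 0.0925, adjusted p 1.68e-05). In SUM159 the 9 libraries of No gRNA, gRNA 4 and All gRNA lay between 207 and 254 CPM, with log2 fold changes of 0.10 (adjusted p 0.329) and -0.03 (adjusted p 0.812).

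RBFOX2 (ENSG00000100320, chromosome 22, 35738736 to 36028824) was lower in set 2, at 169, 161 and 175 CPM against 199.5, 189.9 and 215 CPM in No gRNA, and set 1 overlapped No gRNA at 205, 189 and 193 CPM. The log2 fold change was -0.25 (SE 0.0516, adjusted p 0.00155) in set 2 and -0.04 (SE 0.0503, adjusted p 0.546) in set 1. In SUM159 it was 293, 288 and 282 CPM in No gRNA, 260.0, 253 and 255 CPM with gRNA 4 and 285, 280.1 and 270 CPM with All gRNA. The fall with gRNA 4 was 0.18 on the log2 scale (adjusted p 0.0438), and leaving out any of the 6 libraries ended the call (adjusted p 0.0675 to 0.129). With All gRNA the value was -0.04 (adjusted p 0.632).

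MBNL1 had the highest level of the members per length in every group, from 37.7 to 77.5 CPM per kilobase. Its log2 fold changes against No gRNA were -0.01 with All gRNA, 0.06 with gRNA 4, -0.17 in set 1 and 0.02 in set 2. The set 1 value had an adjusted p of 0.0517, with libraries at 193, 226 and 204 CPM against 237, 238 and 226 CPM, and it passed the threshold under edgeR (0.0426), DESeq2 (0.0191) and DESeq2 size factors (0.0339). MBNL1 shares 1175 exon bases with the antisense gene MBNL1-AS1, whose mean was 43.3 estimated counts.

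MBNL3, on the X chromosome, was above the floor of 3 counts in MDA-MB-231 libraries only. Its highest value in the 15 SUM159 libraries was 0.0896 CPM, or 1.67 estimated counts. The 12 MDA-MB-231 libraries held 7.19 to 19.5 CPM. In MDA-MB-231 No gRNA it was 15.1, 19.1 and 19.5 CPM, in set 1 7.19, 15.7 and 13.6 CPM and in set 2 13.1, 16.6 and 10.7 CPM. Both sets overlapped No gRNA, with log2 fold changes of -0.62 (SE 0.279, adjusted p 0.102) and -0.41 (SE 0.270, adjusted p 0.224). It was not tested in SUM159.

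The control groups differed from each other in RBFOX2, QKI and MBNL2 too. In MDA-MB-231, No gRNA against wild type, the moderated test called 53.8% of genes and 3 of 8 members, all higher in No gRNA. MBNL2 was 79.0, 85.0 and 83.9 CPM in wild type cells, so it was higher in No gRNA by 0.90 (SE 0.0896, adjusted p 5.88e-06), and set 2 lay at the wild type level (log2 difference -0.03, adjusted p 0.852). RBFOX2 was 137, 144 and 143 CPM in wild type and higher in No gRNA by 0.45 (SE 0.0528, adjusted p 2.48e-05). QKI was 182, 170 and 170 CPM in wild type and higher in No gRNA by 0.28 (SE 0.0526, adjusted p 0.000909). With wild type in place of No gRNA as the control, RBFOX2 was higher in both sets, by 0.40 (adjusted p 4.99e-05) and 0.19 (adjusted p 0.0173). MBNL2 was higher in set 1 by 0.80 (adjusted p 1.42e-05). QKI was higher in set 1 by 0.75 (adjusted p 1.49e-07), and in set 2 it was 0.12 with an adjusted p of 0.0996. The opposite directions of QKI thus rest on No gRNA as the control. ESRP1 kept its direction and its call in MDA-MB-231 with this control, at 5.83 in set 1 and 5.51 in set 2.

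In SUM159, No gRNA against wild type of run 1, 42.9% of genes and 2 of 6 members were called. QKI was lower in No gRNA by 0.33 on the log2 scale (SE 0.0464, adjusted p 0.000156) and MBNL1 lower by 0.24 (SE 0.0499, adjusted p 0.00257). QKI stood at 375, 392 and 371 CPM in wild type cells of run 1 and at 207, 199 and 194 CPM in the same line in run 2, a log2 difference of -0.93 (SE 0.0424, adjusted p 4.19e-06). MBNL2 was lower in run 2 by 0.71 (adjusted p 2.72e-05) and MBNL1 by 0.20 (adjusted p 0.00585), while RBFOX2 differed by 0.00 (95% confidence interval -0.12 to 0.12). Against wild type of run 1, QKI was lower in both targeted SUM159 groups, by 0.12 (adjusted p 0.0443) with gRNA 4 and by 0.21 (adjusted p 0.00228) with All gRNA, where No gRNA as the control gave higher values.

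**Figure D3:**
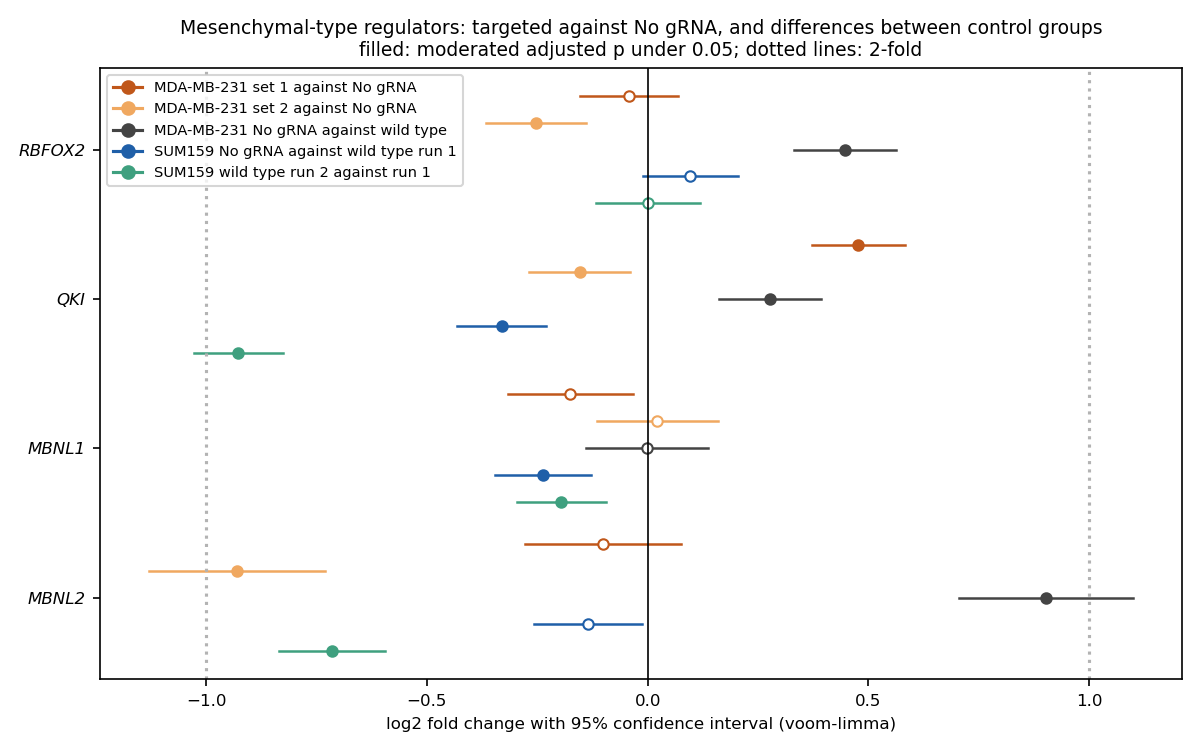
Log2 fold changes with 95% confidence intervals (horizontal axis) of RBFOX2, QKI, MBNL1 and MBNL2 for the MDA-MB-231 sets against No gRNA and for 3 contrasts between control groups, 3 libraries against 3. Filled points passed the moderated test at an adjusted p under 0.05, and the control contrasts reached 0.90 for MBNL2 in MDA-MB-231 and -0.93 for QKI between runs of SUM159, as far from 0 as the set 2 value of MBNL2 (-0.93).

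The targeted groups of a line were also set against each other. In SUM159, All gRNA against gRNA 4, 0.944% of genes and 0 of the 6 members passed the moderated test. The smallest adjusted p of the 6 was that of RBFOX2 (0.13, adjusted p 0.334). In MDA-MB-231, set 2 against set 1, 51.5% of genes and 4 of 8 members were called. QKI was lower in set 2 by 0.63 (95% confidence interval of the difference -0.74 to -0.52, adjusted p 1.01e-06), RBFOX2 lower by 0.21 (SE 0.0527, adjusted p 0.00577) and MBNL2 lower as given above, while MBNL1 was higher by 0.20 (SE 0.0650, adjusted p 0.0249). The MBNL1 call was lost without set 1 replicate 1 or 3 or set 2 replicate 2 or 3, and the RBFOX2 call without set 1 replicate 1 (adjusted p 0.0631).

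Between the lines, wild type cells within run 2 were compared, since that run held both lines. The moderated test called 75.5% of 15110 genes and 6 of the 7 members tested. MBNL3, one of the 6, had at most 0.838 estimated counts in the SUM159 libraries. It passed the count filter only through MDA-MB-231, so its call was not independent of the filter. RBFOX2 was higher in SUM159 by 0.91 (SE 0.0358, adjusted p 7.24e-07), MBNL2 by 0.82 (SE 0.0553, adjusted p 9.12e-06), MBNL1 by 0.73 (SE 0.0434, adjusted p 4.91e-06) and QKI by 0.20 (SE 0.0459, adjusted p 0.00588). ESRP1 was higher in SUM159 by 1.58 (SE 0.526, adjusted p 0.0276), a call lost under edgeR (1.22, adjusted p 0.0746) and on leaving out MDA-MB-231 wild type replicate 1 or 3 or SUM159 run 2 replicate 2 or 3. MBNL3 was at least 64.1-fold higher in MDA-MB-231, with the 3 SUM159 libraries set to the floor of 3 counts each. Of the abundant regulators, 4 of 4 were thus called higher in SUM159 wild type of run 2, beside 5590 of the 15110 genes tested. This comparison rests on 1 run, and QKI, MBNL1 and MBNL2 differed between the SUM159 wild type groups of the runs, as given above.

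Other genes of the splicing machinery were read from 3 lists. Of 29 further splicing regulators, 23 were tested in each line. With All gRNA 0 were higher and 3 lower, with gRNA 4 1 and 1, in set 1 8 and 8, and in set 2 16 and 1, where the shares called over all genes were 10.8%, 11%, 37.8% and 52.4%. The median log2 fold change of the list was 0.39 in set 2, against -0.01 over all genes. NOVA2, a neuronal splicing factor, was lower in SUM159 with All gRNA (-1.15, SE 0.269, adjusted p 0.0172) and gRNA 4 (-1.66, SE 0.294, adjusted p 0.00328), from a mean of 19.0 CPM to 8.97 and 6.23. Wild type cells held a mean of 4.00 CPM in run 1, below both targeted groups, and 28.1 CPM in run 2. NOVA2 was at most 0.0809 CPM in the group means of MDA-MB-231. SRSF3, an SR protein, was lower in set 1 (-0.67, SE 0.0559, adjusted p 3.58e-06) and higher in set 2 (1.05, SE 0.0452, adjusted p 7.32e-09). PNN (1.16, SE 0.0954) and AKAP8 (1.09, SE 0.113) were higher in set 2, with adjusted p of 1.35e-06 and 9.43e-06. PNN had a mean of 135 CPM in MDA-MB-231 wild type, 51.5 in No gRNA and 116 in set 2, and AKAP8 43.0, 20.9 and 43.7 CPM, so No gRNA was the lowest of these groups for both genes.

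In the core spliceosome list, 0 of 20 genes were called in SUM159 with All gRNA and 1 with gRNA 4, beside 10.8% and 11% of all genes. In set 1 3 were higher and 4 lower, beside 37.8% of all genes called, and in set 2 16 were higher and 1 lower, beside 52.4%. TREAT called 1 of the 20 in set 2, beside 4.14% of all genes. The gene was SNRNP70, a U1 snRNP protein (1.15, SE 0.0362, TREAT adjusted p 0.0218). SNRPG, an Sm protein, was higher in set 2 by 1.08 (SE 0.0733, adjusted p 2.86e-07), with means of 56.7 CPM in No gRNA, 119 in set 2 and 187 in wild type. SNRNP70 stood at a mean of 77.6 CPM in MDA-MB-231 No gRNA, 55.0 in set 1 and 171 in set 2, and at 171 in wild type cells, and SRSF3 at 239.6, 151, 492 and 624 CPM in the same order. As with MBNL2, set 2 lay nearer to wild type than No gRNA did. No gRNA against wild type, 1 of the 20 was higher and 16 lower in MDA-MB-231, and 1 and 18 in SUM159, beside 53.8% and 42.9% of all genes called.

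Of 20 genes with exons known to be regulated in the epithelial-mesenchymal transition, 19 were tested and FGFR2 was too low. With All gRNA 2 were higher and 2 lower, with gRNA 4 1 and 2, in set 1 5 and 1, and in set 2 4 and 4, beside the same shares over all genes of 10.8%, 11%, 37.8% and 52.4%. SCRIB, a polarity scaffold, was higher in set 1 (0.56, SE 0.0584, adjusted p 2.21e-05) and in set 2 (1.01, SE 0.0555, adjusted p 5.38e-08), with means of 43.2 CPM in No gRNA, 63.5 in set 1, 86.4 in set 2 and 64.5 in wild type, so the set 1 mean was close to that of wild type. MYO18A, a myosin, was lower in set 2 (-1.07, SE 0.252, adjusted p 0.00381) and -0.64 in set 1 (adjusted p 0.0538). The median log2 fold change of the list was -0.02 in set 1 and 0.01 in set 2, close to that of all genes.

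**Figure D4:**
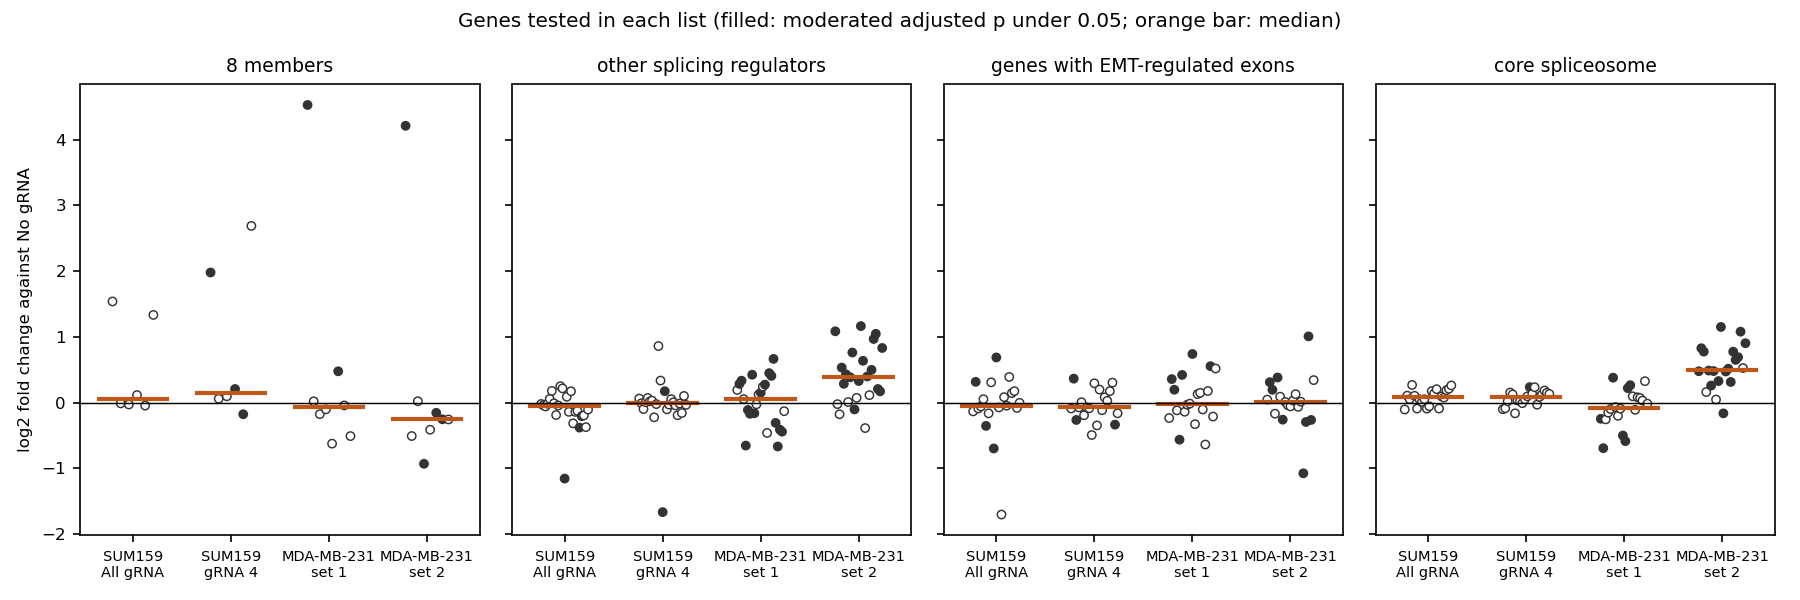
Log2 fold change against No gRNA (vertical axis) of every gene tested among the 8 members, the further splicing regulators, the genes with EMT-regulated exons and the core spliceosome, for the 4 targeted groups. Filled points passed the moderated test at an adjusted p under 0.05 and orange bars mark medians, which in set 2 stood at 0.39 for the further regulators and 0.50 for the core spliceosome, and ESRP1 lay highest in both MDA-MB-231 sets.

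The genes whose pattern was most like that of a member were ranked by Pearson's r of group means over 8 groups (without the SUM159 wild type of run 2), centred within each line, among 17182 genes. The points share lines, vector and run, and r is a description. For ESRP1 they were TMTC2 (r = 0.998), ELOVL7 (0.992) and RAB17 (0.992), and for MBNL2 NCMAP (0.996), USP8 (0.995) and MTHFD2 (0.994). VPS37A (0.994) was nearest to QKI, DCAF5 (0.989) to RBFOX2 and NEMF (0.996) to MBNL1. RBM47 had PCSK6 (0.957), and MBNL3 had CSPG4P10 (0.976). Of the named genes of ESRP2, PSD3 was nearest (0.977).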

How the data were processed

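Libraries were read as single ends of 50 bp. From them the authors made gene-level estimated counts with Salmon and tximport, scaled for transcript length, on GRCh38, and deposited these without normalization. The Salmon version, annotation and strandedness are not given in the sources used here. Of 57165 gene identifiers 56347 matched GENCODE v44, whose canonical transcripts gave the lengths for CPM per kilobase.

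Comparisons used R 4.3.3 with limma 3.58.1 (voom, unrounded counts, two-sided p-values) and edgeR 4.0.16 for TMM scaling and filterByExpr (minimum count 10). Comparisons among targeted, No gRNA and wild type groups of a line were fitted over the SUM159 libraries of run 1 or the MDA-MB-231 libraries. Those between runs and between lines used only the wild type libraries compared. The interaction used the libraries of both lines' fits together. Calls need a Benjamini-Hochberg adjusted p under 0.05 over all genes tested, by TREAT against a log2 fold change of 1 or by the moderated test against 0. Adjusted p-values are moderated unless named TREAT. Alternatives were edgeR's quasi-likelihood test and DESeq2 1.42.0 (rounded counts), DESeq2 size factors, no filter, a replicate block and each library left out. Wild type as control was run for the targeted comparisons only. CPM use TMM-scaled totals. No pair of replicates agreed within sampling noise. Steps were tested on simulated data with 200 changed genes.

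Members and lists were chosen with earlier results of these data known. Listed genes are named where an adjusted p was under 0.05 and the log2 fold change over 1 either way in a targeted comparison, at most 4 a list, by mean size of change. For likeness the 3 nearest genes of each member were ranked.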

Additional observations from a re-analysis of the deposited data

Results flagged for a closer look

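The change of ESRP1 with gRNAs differed between the lines. The interaction, MDA-MB-231 minus SUM159, was 2.59 on the log2 scale (adjusted p 0.0102 by limma's moderated test), with ESRP1 higher in 6 of 6 targeted MDA-MB-231 libraries than in any No gRNA library. Over the alternatives it ran from 1.87 to 3.01, with adjusted p between 0.000117 and 0.132. For MBNL2 the interaction was -0.57 (adjusted p 5.82e-05, range over the alternatives -0.63 to -0.52). In MDA-MB-231 the set 2 libraries carried it, since set 1 did not differ from No gRNA past the threshold (adjusted p 0.351). Wild type as control was not among the alternatives of either interaction. Against wild type MBNL2 was 0.80 in set 1 and -0.03 in set 2, and in SUM159 -0.16 with All gRNA and -0.04 with gRNA 4. The MBNL2 interaction was thus seen with No gRNA as the control only. Against wild type both MDA-MB-231 values lay above both SUM159 values, the opposite order, and this difference was not tested. Line and run cannot be told apart in either contrast.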

How the results depend on the processing

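ESRP1 stayed called higher in both MDA-MB-231 sets under every alternative run, with log2 fold changes of 4.32 to 5.83 in set 1 and 4.01 to 5.51 in set 2, and TREAT called 1 of 8 members in each set throughout. The moderated counts moved. With gRNA 4 the 3 members called became 1 without a filter on low counts, where more genes enter the adjustment. The count was 0 to 2 in some fits with a library left out, and over all alternatives it ran from 0 to 4. DESeq2 also called RBM47 there. With wild type as control 4 members were called with All gRNA, 3 with gRNA 4 (ESRP1 higher, QKI and MBNL1 lower), 5 in set 1 and 2 in set 2. The share of all genes called with this control was not counted, so these counts cannot be set against it. Leaving out a library gave 2 to 4 members between set 2 and set 1 and 1 to 2 in the interaction.

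With wild type as control the sign turned for RBM47 (-0.50), RBFOX2 (0.052) and QKI (-0.21) with All gRNA, for QKI (-0.12), MBNL1 (-0.18) and MBNL2 (-0.038) with gRNA 4, for RBM47 (1.54), RBFOX2 (0.40) and MBNL2 (0.80) in set 1, and for RBM47 (1.80), RBFOX2 (0.19), QKI (0.12) and MBNL3 (0.12) in set 2. The cause was not tested. The other turned values were not called in either form. Under edgeR and DESeq2 these were ESRP2 in set 1 (-0.35 and -0.36) and RBM47 in set 1 (0.13 and 0.11) and set 2 (0.16 and 0.17). MBNL1 in MDA-MB-231 No gRNA against wild type was 0.013 with edgeR, 0.024 with DESeq2, 0.023 with its size factors and 0.017 without the filter. RBFOX2 between runs was -0.00066, -0.0023 and -0.0018 with edgeR, DESeq2 and its size factors, and the MBNL3 interaction 0.058 with DESeq2.

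Leaving out libraries turned only values that were not called. MBNL1 ran from -0.036 to 0.0056 with All gRNA, -0.019 to 0.089 in set 2 and -0.031 to 0.023 in MDA-MB-231 No gRNA against wild type, and MBNL2 from -0.0696 to 0.0067 with All gRNA. ESRP2 ran from -0.56 to 0.72 in that control contrast, -0.54 to 0.73 in set 1 and -1.07 to 0.23 in set 2. RBFOX2 ran from -0.0902 to 0.0063 in set 1 and -0.052 to 0.028 between runs. RBM47 ran from -1.31 to 0.60 in set 1, -0.92 to 0.60 in set 2, -0.86 to 1.10 between the sets and -0.64 to 1.33 between the lines. MBNL3 ran from -0.10 to 0.46 between the sets and -0.26 to 0.22 in the interaction, where QKI ran from -0.0498 to 0.0088.

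Same-numbered replicates did not deviate together (r from -0.07 to 0.05 over 42 pairs, 0 over 0.1, 19 best with their own number), so numbers do not pair libraries. With the replicate block ESRP2 in set 1 was -0.17 and RBM47 between the sets -0.15. ESRP1 lost its calls with gRNA 4 (2.04, adjusted p 0.0682) and between the lines (1.33, adjusted p 0.0658), and MBNL1 in set 1 gained one (-0.17, adjusted p 0.0336). ESRP2, and ESRP1 and MBNL3 in SUM159, rest on few counts.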
